A study of Homo sapiens with 5 samples.

Results

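Integrin and laminin subunit genes were followed across 5 RNA sequencing libraries of the human embryonic stem cell line H9. Members were the rows of the deposited table whose symbol is that of an integrin alpha chain, an integrin beta chain or a laminin alpha, beta or gamma chain. Described are 36 of 26506 rows, namely 17 integrin alpha, 8 integrin beta, 5 laminin alpha, 4 laminin beta and 2 laminin gamma genes. ITGAM, the alpha chain of the leukocyte receptor Mac-1, is not taken by the symbol pattern and is given only as the partner of ITGB2. Wild-type (WT) cells were grown in basal medium, 5iLAF or 2iLAF, and cells of genotype B3GALT5-/- (knockout, KO in the plots) in basal medium or 2iLAF. All 5 libraries are of the same cell line. The labels call both basal libraries primed, WT 5iLAF and knockout 2iLAF naive, and WT 2iLAF primed-naive. They do not say how many knockout clones were used or on what surface the cells grew. With 1 library in each group there is no replicate check, no test was possible and every comparison describes these libraries.

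Integrins are receptors made of 1 alpha and 1 beta chain that span the plasma membrane and tie the matrix outside the cell to actin or keratin inside it. The alpha chain largely sets the ligand. Laminins are trimers of 1 alpha, 1 beta and 1 gamma chain that form the sheet of the basement membrane. In primed human pluripotent cells the receptor of integrin alpha 6 and beta 1 binds laminin-511 and laminin-521, and recombinant forms of these laminins, or vitronectin, which is bound through integrin alpha V, are used as culture surfaces.

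Expression is given in TPM (transcript abundance scaled by transcript length and library total), so levels of different genes can be set side by side. Sequencing depth is unknown, since the table holds no counts, and a value of 0 is described as listed at 0. RNA of bulk cultures was measured, so fewer cells of a type and less RNA per cell cannot be told apart. The markers set against the labels were mixed. All 6 pluripotency markers were at 1 TPM or more in every library, with POU5F1 between 1099 and 3350.3 TPM. Their levels differed between libraries. In WT 2iLAF POU5F1, NANOG and TDGF1 were lowest, NANOG at 16.5 TPM against 171 in WT basal and TDGF1 at 69.25 against 520. SOX2, LIN28A and SALL4 were instead highest in WT 2iLAF. SOX2 was lowest in the libraries labelled naive, at 65.6 TPM in WT 5iLAF and 55.3 in knockout 2iLAF, against 161 in WT basal. The 6 naive markers summed to 5.34 TPM in WT basal, 4.31 in knockout basal, 25.1 in WT 2iLAF, then 98.2 in WT 5iLAF and 78.3 in knockout 2iLAF, most of it DNMT3L (76.4 and 51.4 TPM) in the libraries labelled naive. In WT 2iLAF most of the sum was KLF4, at 20.5 TPM against 7.71 in WT 5iLAF and 7.57 in knockout 2iLAF. KLF17 and DPPA5 of the same list stayed below 1 TPM in every library. The 5 primed markers summed to 2955 and 3170.1 TPM in WT and knockout basal, 1549 in WT 2iLAF, then 492 in WT 5iLAF and 537 in knockout 2iLAF. Most of the sum in WT 2iLAF was CD24, at 1330 TPM against 1382 in WT basal, and ZIC2 stood at 107 against 84.3. THY1, SFRP2 and DUSP6 were instead far lower there, at 65.7, 45.15 and 1.24 TPM against 716, 470 and 303 in WT basal. The 5 endoderm markers summed to 5.21 TPM in WT basal, 4.32 in knockout basal and 0.73 in WT 2iLAF. In WT 5iLAF they summed to 1936 TPM and in knockout 2iLAF to 981, with all 5 at 1 TPM or more in each. Most of it was CER1 (1832 and 852 TPM). The part of such cells in the subunit levels was not tested. B3GALT5 stood at 9.31 TPM in WT basal, 5.98 in knockout basal, 5.13 in WT 2iLAF, then 2.08 in WT 5iLAF and 1.17 in knockout 2iLAF, and since the edited part of the gene is not given in the sources used here, these levels do not check the knockout. The knockout 2iLAF library stood apart in blood cell transcripts. Its 12 leukocyte and granulocyte markers summed to 1137 TPM, with all 12 at 1 TPM or more, against sums between 2.08 and 27.4 TPM in the other 4 libraries. It is the only library of its group, so its comparisons cannot be given without it.

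Of the 36 genes, 18 were at 1 TPM or more in all 5 libraries and 9 at 10 TPM or more in all 5. LAMB4 was listed at 0 in all 5. Summed over the 36 genes, transcripts came to 934 TPM in WT basal, 948 in knockout basal, 625 in WT 2iLAF, then 1518 in WT 5iLAF and 1898 in knockout 2iLAF. WT 2iLAF thus held the least and the libraries labelled naive the most. The heat map of subunit levels gives every value.

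**Figure D1:**
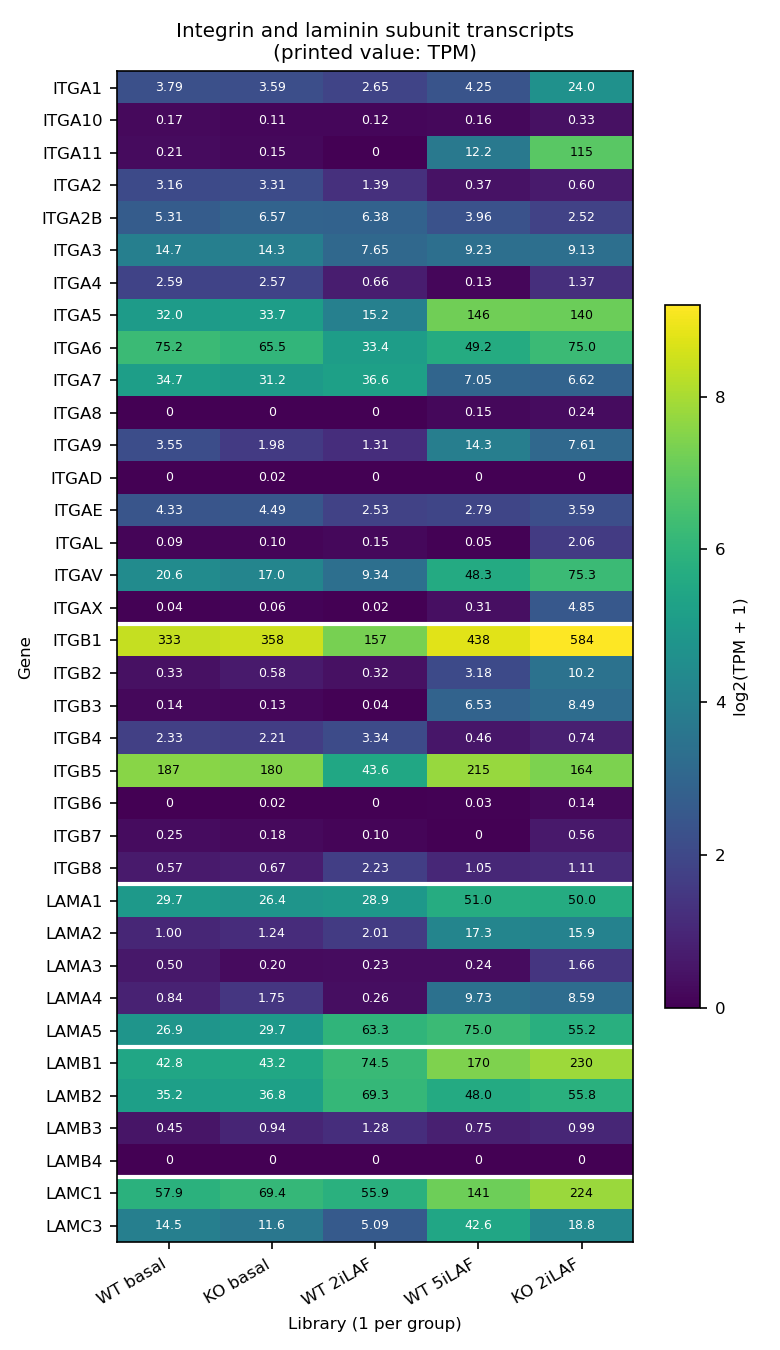
Level of each of the 36 subunit genes (rows) in the 5 libraries (columns, 1 library per group), coloured by log2(TPM + 1) with the TPM printed in each cell. The bands of white separate integrin alpha, integrin beta, laminin alpha, laminin beta and laminin gamma genes. ITGB1 is the most abundant integrin gene in every library, and ITGA11 goes from 0.15 TPM in KO basal to 115 in KO 2iLAF.

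Changes between libraries were measured as the log2 ratio of TPM + 1, and a gene counted as higher or lower where that ratio reached 1 or -1 (the size rule). Genes reaching 1 TPM in at least 1 library were compared (15761 genes), and 30 of the 36 subunit genes did. The other 6 stayed under 1 TPM throughout and cannot reach this size, so the counts below hold for all 36. They were ITGA8, ITGA10, ITGAD, ITGB6, ITGB7 and LAMB4. Another 6 genes reached 1 TPM only in the libraries labelled naive (ITGA11, ITGAL, ITGAX, ITGB2, ITGB3 and LAMA3), so they could only be higher there.

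In basal medium the subunit genes were near level between knockout and WT cells. No member was counted as higher or lower in knockout basal against WT basal, where 0.704% of all compared genes were higher and 1.05% lower. The median log2 ratio was 0.01 over the 30 compared members and -0.06 over all genes. The largest differences in size were ITGA9, a receptor chain for tenascin and other matrix proteins, at 1.98 against 3.55 TPM (log2 ratio -0.61), and LAMA4 at 1.75 against 0.84 TPM (0.58).

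In WT 5iLAF against WT basal, 12 members were higher and 4 lower, where 10.7% of all compared genes were higher and 11.4% lower. The median was 0.39 over members and -0.06 over all genes. In knockout 2iLAF against knockout basal, 14 members were higher and 3 lower, where 15.9% of all genes were higher and 11.8% lower. Here the median was 0.88 over members and 0.02 over all genes. ITGA11, ITGB2 and ITGB3 in both comparisons, LAMA4 in the first, and ITGAL, ITGAX and LAMA3 in the second, could only be counted as higher. These comparisons share no library. Counted as higher in both were 10 members, namely ITGA5, ITGA9, ITGA11, ITGAV, ITGB2, ITGB3, LAMA2, LAMA4, LAMB1 and LAMC1, which is 83.3% of those higher in WT 5iLAF and 71.4% of those higher in knockout 2iLAF. Over all genes those shares were 82.3% and 55.7%, and 8.85% of all compared genes were higher in both. The laminin receptor chain ITGA7 and the collagen receptor chain ITGA2 were lower in both, against 8.22% of all genes. Opposite directions were found for 0 members and for 30 of the 15761 genes. With a pseudocount of 5 TPM, which weighs low genes less, only ITGA7, 1 member, remained counted as lower in each comparison.

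In WT 2iLAF against WT basal, 2 members were higher and 7 lower, where 4.73% of all genes were higher and 7.02% lower. Median log2 ratios were -0.20 over members and -0.13 over all genes. The 7 lower genes were ITGA4, ITGA5, ITGA6, ITGAV, ITGB1, ITGB5 and LAMC3. Median-ratio scaling, which brings the median of all genes to 0.00, left 3 of them counted (ITGA4, ITGB5 and LAMC3). Higher were LAMA5 and ITGB8, of which ITGB8, at 0.57 TPM in WT basal, could only be higher. This comparison and that of WT 5iLAF share the WT basal library.

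**Figure D2:**
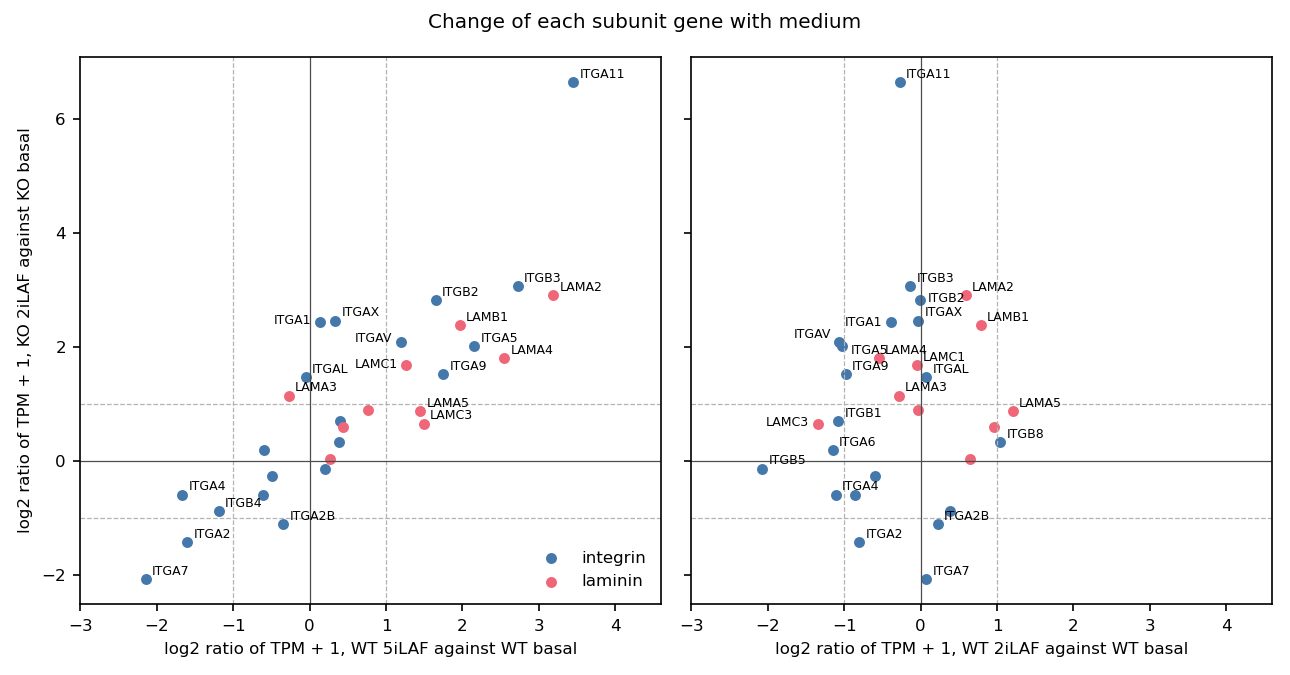
Log2 ratio of TPM + 1 of the 30 compared subunit genes, with KO 2iLAF against KO basal on the vertical axis of both panels, and WT 5iLAF (left) or WT 2iLAF (right) against WT basal on the horizontal axis. Dashed lines mark a log2 ratio of 1 in size. On the left no gene lies beyond the lines in opposite directions, and on the right ITGA5 and ITGAV do.

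The beta chains were dominated by a pair of genes. ITGB1, the partner of most alpha chains, stood at 333 TPM in WT basal, 358 in knockout basal, 157 in WT 2iLAF, then 438 in WT 5iLAF and 584 in knockout 2iLAF. WT 2iLAF was lowest and knockout 2iLAF highest. ITGB5, which pairs with alpha V to bind vitronectin, stood at 187, 180, 43.6, 215 and 164 TPM in the same order of libraries. WT 2iLAF stood far under the other 4, with a log2 ratio of -2.07 against WT basal that stayed past the size rule under the 6 alternatives tried for it. Together these genes made up between 97.1% and 99.3% of beta chain transcripts, and ITGB1 alone between 63.6% and 76.0%.

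The minor beta chains followed other patterns. ITGB3, which pairs with alpha V and with alpha IIb, was between 0.04 and 0.14 TPM in both basal libraries and WT 2iLAF, and at 6.53 TPM in WT 5iLAF and 8.49 in knockout 2iLAF. ITGB8, an alpha V partner that activates latent TGF-beta, was highest in WT 2iLAF at 2.23 TPM, with 0.57 and 0.67 TPM in WT and knockout basal and 1.05 and 1.11 in WT 5iLAF and knockout 2iLAF. ITGB4, which pairs only with alpha 6 and anchors hemidesmosomes, stood at 2.33 and 2.21 TPM in WT and knockout basal and 3.34 in WT 2iLAF, against 0.46 in WT 5iLAF and 0.74 in knockout 2iLAF. Of 7 epithelial markers, EPCAM, CDH1, CLDN4 and CLDN7 were higher in the same 3 libraries, while KRT5 was lowest in both basal libraries and KRT14 highest in the libraries labelled naive. The 7 markers summed to 574 and 569 TPM in WT and knockout basal, 837 in WT 2iLAF, then 169 in WT 5iLAF and 108 in knockout 2iLAF, and their part in the level of ITGB4 was not tested. Of these markers TP63, a basal epithelial factor, stayed under 1 TPM in every library.

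Of the alpha chains that bind the RGD sequence of fibronectin and vitronectin, ITGA5 and ITGAV were highest in the libraries labelled naive. ITGA5, the fibronectin receptor chain, stood at 32.0 TPM in WT basal, 33.7 in knockout basal, 15.2 in WT 2iLAF, then 146 in WT 5iLAF and 140 in knockout 2iLAF. The libraries labelled naive were thus 4.56 and 4.16 times their own basal library, and WT 2iLAF was lowest. ITGAV stood at 20.6, 17.0, 9.34, 48.3 and 75.3 TPM in that order of libraries. It was 2.34 times basal in WT 5iLAF and 4.44 times in knockout 2iLAF, and again lowest in WT 2iLAF. ITGA2B, the alpha IIb chain of platelets, was low throughout, from 2.52 TPM in knockout 2iLAF to 6.57 in knockout basal. None of 6 megakaryocyte and platelet markers reached 1 TPM in any library, and their sums lay between 0.52 and 0.94 TPM.

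Laminin-binding alpha chains were the larger class in basal medium and in WT 2iLAF. ITGA6, the chain that serves the main laminin receptor of primed cells, stood at 75.2 TPM in WT basal, 65.5 in knockout basal, 33.4 in WT 2iLAF, then 49.2 in WT 5iLAF and 75.0 in knockout 2iLAF. Knockout 2iLAF was at the level of WT basal, and neither library labelled naive passed the size rule against its basal library. ITGA7, a laminin receptor chain best known in muscle, stood at 34.7, 31.2, 36.6, 7.05 and 6.62 TPM in the same order. It was near level in both basal libraries and WT 2iLAF, and lower in both libraries labelled naive (log2 ratios of -2.15 and -2.08). ITGA3 stood at 14.7 and 14.3 TPM in WT and knockout basal and between 7.65 and 9.23 TPM in the other 3 libraries, with no ratio past the size rule.

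The 3 laminin-binding chains together took 62.2% of alpha chain transcripts in WT basal, 60.1% in knockout basal, 66.2% in WT 2iLAF, then 22.0% in WT 5iLAF and 19.4% in knockout 2iLAF. The RGD-binding chains ITGA5, ITGA8, ITGAV and ITGA2B took 28.9%, 31.0%, 26.3%, 66.5% and 46.6% in that order. Laminin-binding chains therefore led in the first 3 libraries and RGD-binding chains in the other two. In summed level the laminin-binding chains were at 125 TPM in WT basal and 65.5 in WT 5iLAF, and the RGD-binding chains at 57.9 and 198 TPM. In WT 2iLAF both classes were lower than in WT basal, at 77.7 and 30.9 TPM.

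**Figure D3:**
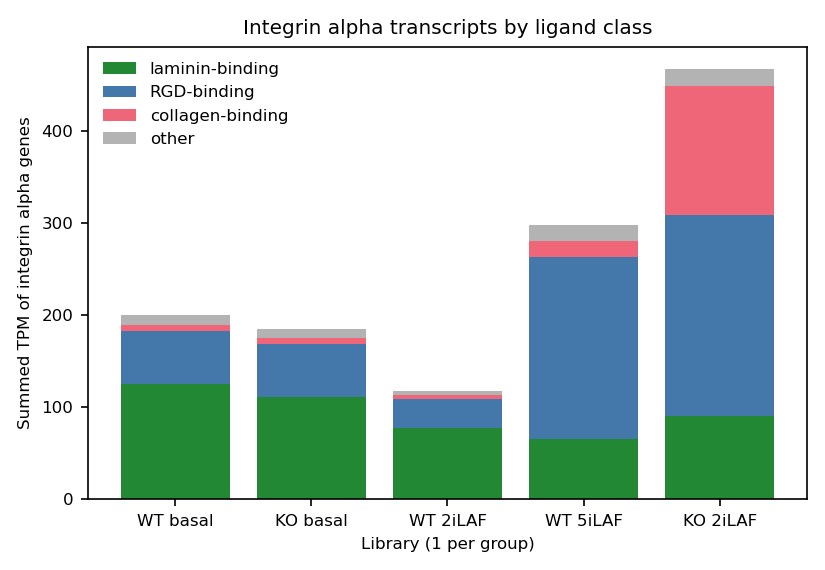
Summed TPM of integrin alpha genes in each library (1 per group), stacked by the ligand class of the chain. Laminin-binding chains are ITGA3, ITGA6 and ITGA7, RGD-binding chains ITGA5, ITGA8, ITGAV and ITGA2B, and collagen-binding chains ITGA1, ITGA2, ITGA10 and ITGA11. RGD-binding chains sum to 198 TPM in WT 5iLAF against 57.9 in WT basal, and collagen-binding chains to 140 TPM in KO 2iLAF against 17.0 in WT 5iLAF.

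Collagen-binding alpha chains separated the libraries labelled naive from each other. ITGA11, a fibrillar collagen receptor chain of mesenchymal cells, stood at 0.21 TPM in WT basal, 0.15 in knockout basal, then 12.2 in WT 5iLAF and 115 in knockout 2iLAF, and was listed at 0 in WT 2iLAF. In knockout 2iLAF it made up 24.6% of all alpha chain transcripts and was 9.42 times the level of WT 5iLAF. ITGA1, a receptor chain for basement membrane collagen, stood at 24.0 TPM in knockout 2iLAF and between 2.65 and 4.25 TPM in the other 4 libraries, WT 5iLAF included. ITGA2, its neighbour on chromosome 5 with only PELO between them in RefSeq, was instead lower in the libraries labelled naive, at 3.16 and 3.31 TPM in WT and knockout basal, 1.39 in WT 2iLAF, then 0.37 in WT 5iLAF and 0.60 in knockout 2iLAF. ITGA10 stayed at or under 0.33 TPM.

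Fibroblast and mesenchymal markers were also highest in the libraries labelled naive, knockout 2iLAF first. The 8 markers summed to 104 TPM in WT basal, 142 in knockout basal, 427 in WT 2iLAF, then 3905 in WT 5iLAF and 7807 in knockout 2iLAF, with 4, 4, 4, 7 and 8 of 8 at 1 TPM or more. DCN, decorin, was listed at 0 in both basal libraries and in WT 2iLAF, and stood at 0.33 TPM in WT 5iLAF and 48.3 in knockout 2iLAF. The part of such cells in the levels of ITGA11 and ITGA1 was not tested.

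ITGA9 and ITGA4, alpha chains with sites for other ligands, differed in direction. ITGA9 stood at 3.55 TPM in WT basal, 1.98 in knockout basal, 1.31 in WT 2iLAF, then 14.3 in WT 5iLAF and 7.61 in knockout 2iLAF. ITGA4, which binds VCAM1 and fibronectin, stood at 2.59, 2.57, 0.66, 0.13 and 1.37 TPM in that order. The libraries labelled naive were the highest for ITGA9, and WT 5iLAF was the lowest for ITGA4. ITGAE, known from T cells of epithelia, was near level between 2.53 and 4.49 TPM, while its only partner ITGB7 stayed at or under 0.56 TPM.

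Leukocyte integrins were highest in knockout 2iLAF. ITGB2, the beta chain shared by these receptors, stood at 10.2 TPM there, at 3.18 in WT 5iLAF and between 0.32 and 0.58 in the other 3 libraries. ITGAX stood at 4.85 TPM in knockout 2iLAF and at most at 0.31 elsewhere. ITGAL stood at 2.06 TPM against at most 0.15, and ITGAM at 3.47 TPM against at most 0.31. ITGAD was at or under 0.02 TPM in every library. These levels stood beside the leukocyte markers given above. Of these, FCGR3B, a neutrophil surface receptor, stood at 50.4 TPM in knockout 2iLAF and was listed at 0 in the other 4 libraries. In WT 5iLAF, where ITGB2 was at 3.18 TPM, 4 of the 12 markers were listed at 0 and SPI1, a myeloid transcription factor, was at 15.7 TPM. The part of blood cells in these integrin levels was not tested. Without ITGAL, ITGAX and ITGB2 the higher members in knockout 2iLAF were 11 against knockout basal, a comparison chosen after seeing the data.

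Subunits were then paired into the 24 known human integrin receptors, taking the lower of both chains as the level of the pair. This is a statement on RNA, and surface protein was not measured. Bulk RNA also does not show whether both chains of a pair come from the same cells. Both chains reached 1 TPM for 11 receptors in each of WT basal, knockout basal and WT 2iLAF, for 12 in WT 5iLAF and for 16 in knockout 2iLAF. At a limit of 10 TPM there were 6 receptors in each of WT basal, knockout basal, WT 5iLAF and knockout 2iLAF, and 3 in WT 2iLAF. At the limit of 1 TPM, 8 receptors were found in all 5 libraries, namely ITGB1 with ITGA1, ITGA3, ITGA5, ITGA6, ITGA7, ITGA9 or ITGAV, and ITGAV with ITGB5. ITGB1 was never the lower chain of its pairs, since its level was between 1.28 and 2.07 times the sum of its 12 alpha partners. The pairs of ITGA2 with ITGB1 and ITGA6 with ITGB4 reached 1 TPM in basal medium and WT 2iLAF only. Those of ITGA11 with ITGB1, ITGAV with ITGB3 and ITGA2B with ITGB3 did so in WT 5iLAF and knockout 2iLAF only, and those of ITGB2 with ITGAL, ITGAM or ITGAX in knockout 2iLAF only. The highest pair was ITGA6 with ITGB1 in both basal libraries (75.2 and 65.5 TPM), ITGA7 with ITGB1 in WT 2iLAF (36.6 TPM, with ITGA6 at 33.4) and ITGA5 with ITGB1 in both libraries labelled naive (146 and 140 TPM).

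No laminin chain was counted as lower in the libraries labelled naive than in basal medium. LAMA3 and LAMB3, under 1 TPM in both basal libraries, could not be counted as lower. Nor could LAMA4 in WT 5iLAF, since it stood at 0.84 TPM in WT basal. LAMA2, at 1.00 TPM in WT basal, could be lower in WT 5iLAF only if listed at 0. Of 10 compared laminin genes, 6 were higher and 0 lower in WT 5iLAF against WT basal, and 5 higher and 0 lower in knockout 2iLAF against knockout basal, with medians of 1.35 and 1.02. Of all genes, 10.7% were higher and 11.4% lower in the first comparison, and 15.9% and 11.8% in the second. Of the integrin genes, 6 of 20 were higher and 4 lower in the first and 9 higher and 3 lower in the second, with medians of 0.17 and 0.52. The counts include genes that could only be higher there, such as LAMA4 in WT 5iLAF, LAMA3 in knockout 2iLAF, and ITGA11, ITGB2 and ITGB3 in both libraries. In WT 2iLAF 1 laminin gene was higher and 1 lower, beside 4.73% and 7.02% of all genes.

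LAMA1 and LAMA5 were the main laminin alpha chains. LAMA1, the chain of laminin-111 in the earliest embryonic basement membrane, stood at 29.7 TPM in WT basal, 26.4 in knockout basal, 28.9 in WT 2iLAF, then 51.0 in WT 5iLAF and 50.0 in knockout 2iLAF. It passed the size rule in no comparison. LAMA5, the chain of laminin-511 and laminin-521, stood at 26.9, 29.7, 63.3, 75.0 and 55.2 TPM in that order. It stood above its basal library in all 3 libraries grown in 5iLAF or 2iLAF, past the size rule in both WT libraries (log2 ratios of 1.45 in 5iLAF and 1.21 in 2iLAF) and at 0.87 in knockout. LAMA5 was the 1 compared laminin alpha chain past the size rule in WT 2iLAF.

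LAMA2 and LAMA4, the alpha chains of muscle and of vessel basement membrane, were low in basal medium. LAMA2 stood at 1.00 TPM in WT basal, 1.24 in knockout basal, 2.01 in WT 2iLAF, then 17.3 in WT 5iLAF and 15.9 in knockout 2iLAF. LAMA4 stood at 0.84, 1.75, 0.26, 9.73 and 8.59 TPM in that order. Both were high in the libraries labelled naive alone, and close between those. The 5 endothelial markers summed to 30.6 TPM in WT basal, 47.1 in knockout basal, 14.8 in WT 2iLAF, then 12.8 in WT 5iLAF and 31.4 in knockout 2iLAF. Of these, KDR reached 40.6 TPM in knockout basal, TEK 10.99 in knockout 2iLAF and VWF 3.64 in WT 2iLAF, while PECAM1 and CDH5 stayed under 1 TPM in every library. The part of such cells in the level of LAMA4 was not tested. LAMA3, an alpha chain of epithelial laminins, reached 1.66 TPM in knockout 2iLAF and at most 0.50 elsewhere.

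Of the laminin beta chains, LAMB1 stood at 42.8 TPM in WT basal, 43.2 in knockout basal, 74.5 in WT 2iLAF, then 170.0 in WT 5iLAF and 230.4 in knockout 2iLAF. LAMB2, which replaces LAMB1 in laminins such as laminin-521, stood at 35.2, 36.8, 69.3, 48.0 and 55.8 TPM in that order. The beta chains thus differed in where they were high, LAMB1 in the libraries labelled naive and LAMB2 in WT 2iLAF. LAMB1 took between 51.4% and 54.6% of beta chain transcripts in both basal libraries and WT 2iLAF, and 77.7% and 80.2% in WT 5iLAF and knockout 2iLAF. LAMB3, a beta chain of epithelial basement membranes, was at most at 1.28 TPM, in WT 2iLAF. LAMB4, which lies next to LAMB1 on chromosome 7 in RefSeq, was listed at 0 everywhere.

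LAMC1, the gamma chain of most laminins, stood at 57.9 TPM in WT basal, 69.4 in knockout basal, 55.9 in WT 2iLAF, then 141 in WT 5iLAF and 224 in knockout 2iLAF. It was highest in knockout 2iLAF. LAMC3 had another order, at 14.5 TPM in WT basal, 11.6 in knockout basal, 5.09 in WT 2iLAF, then 42.6 in WT 5iLAF and 18.8 in knockout 2iLAF. It was the 1 member lower in knockout 2iLAF than in WT 5iLAF by the size rule (log2 ratio -1.14).

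Chains were combined into 13 known laminin trimers, with the lowest chain as the level of the trimer. A chain shared between trimers counted in full for each, so levels of different trimers cannot be added. Here too the chains may come from different cells. All chains reached 1 TPM for 8 trimers in WT basal, 11 in knockout basal, 8 in WT 2iLAF, then 11 in WT 5iLAF and 13 in knockout 2iLAF. The count of WT basal includes the 3 trimers of LAMA2, which stood at 1.00 TPM, just at the limit, and that of knockout basal the 3 trimers of LAMA4 at 1.75 TPM. At a limit of 5 TPM there were 5 trimers in both basal libraries and in WT 2iLAF and 11 in WT 5iLAF and knockout 2iLAF. Laminin-511 was limited by LAMA5 in 4 libraries and by LAMC1 in WT 2iLAF, with the lowest chain at 26.9 TPM in WT basal, 29.7 in knockout basal, 55.9 in WT 2iLAF, then 75.0 in WT 5iLAF and 55.2 in knockout 2iLAF. Laminin-111 was limited by LAMA1 in every library, at 29.7, 26.4, 28.9, 51.0 and 50.0 TPM.

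**Figure D4:**
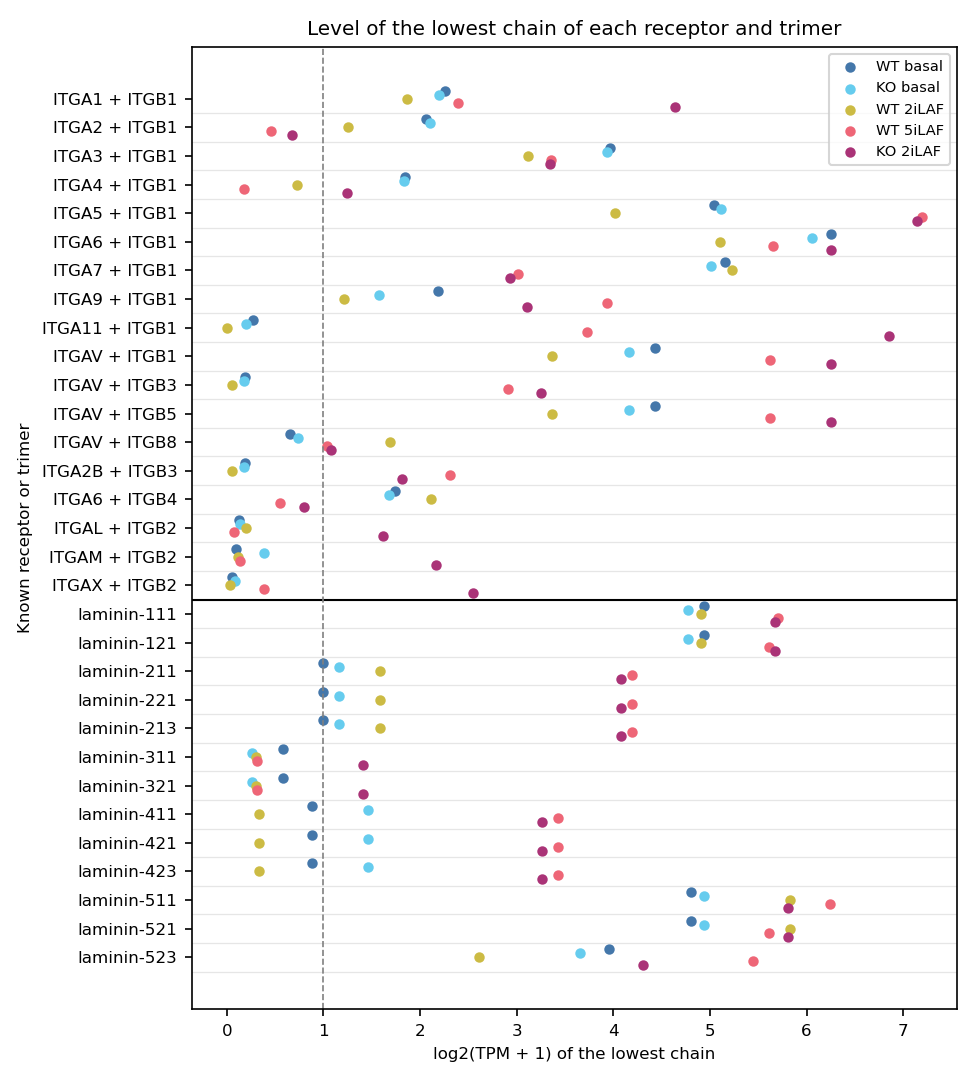
Level of the lowest chain, as log2(TPM + 1), of each known integrin receptor (above the black line) and laminin trimer (below) whose lowest chain reached 1 TPM in at least 1 library, with 1 point per library. The dashed line marks 1 TPM. Trimers of LAMA2 and LAMA4 lie within a log2 unit of the line in basal medium and WT 2iLAF, and right of it in WT 5iLAF and KO 2iLAF, where LAMA2 stands at 17.3 and 15.9 TPM.

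Within 2iLAF, cells without B3GALT5 held more of many subunits than WT cells. In knockout 2iLAF against WT 2iLAF, 18 members were higher and 3 lower, where 16.6% of all compared genes were higher and 10.8% lower. The median was 1.51 over members and 0.10 over all genes. The 18 include the 6 genes that reached 1 TPM only in the libraries labelled naive, which could only be higher here. The same held for LAMA4, at 0.26 TPM in WT 2iLAF. Largest were the ratios of ITGA11 (log2 ratio 6.86), ITGB3 (3.19) and ITGA5 (3.12), the last at 140 against 15.2 TPM. Both major beta chains were higher, ITGB1 by 3.71 times and ITGB5 by 3.77 times in TPM, as was ITGA6 by 2.24 times. The 3 lower genes were ITGA7, ITGB4 and ITGA2B, at log2 ratios of -2.30, -1.32 and -1.07. Without ITGAL, ITGAX and ITGB2 the higher members numbered 15. This comparison shares the knockout 2iLAF library with that against knockout basal. The labels do not show whether the cultures were handled side by side, so genotype and culture cannot be told apart.

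The libraries labelled naive differed from each other in fewer members. In knockout 2iLAF against WT 5iLAF, 7 members were higher and 1 lower, where 4.90% of all genes were higher and 1.03% lower. Higher were ITGA1, ITGA4, ITGA11, ITGAL, ITGAX, ITGB2 and LAMA3. Of these, ITGAL, ITGAX and LAMA3 reached 1 TPM in knockout 2iLAF alone, so they could only be higher. The same held for ITGA4, at 0.13 TPM in WT 5iLAF. Without ITGAL, ITGAX and ITGB2 the count of higher members was 4, and with a pseudocount of 5 TPM it was 2. ITGA5, ITGA7, LAMA1, LAMA2 and LAMA4 had log2 ratios between -0.16 and -0.03 between these libraries, which differ in genotype and in medium.

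Matrix ligands other than laminin were compared as a list of 21 genes, of which 19 reached 1 TPM. In WT 5iLAF 13 were higher and 2 lower than in WT basal (median 2.28), and in knockout 2iLAF 13 were higher and 1 lower than in knockout basal (median 3.21), beside all-gene medians of -0.06 and 0.02 and shares of 10.7% higher and 11.4% lower in WT 5iLAF and 15.9% and 11.8% in knockout 2iLAF. FN1, fibronectin, the ligand of the receptor of ITGA5, stood at 44.1 TPM in WT basal, 51.8 in knockout basal, 20.7 in WT 2iLAF, then 504.5 in WT 5iLAF and 1292 in knockout 2iLAF. SPP1, osteopontin, an RGD ligand, stood at 33.0, 66.2, 33.0, 723 and 620.1 TPM. COL4A1, the basement membrane collagen, stood at 47.0, 49.5, 48.5, 291 and 705 TPM. MFGE8, a secreted RGD protein, was instead lower in the libraries labelled naive, at 698 and 725 TPM in WT and knockout basal, 809 in WT 2iLAF and 63.1 and 90.1 in WT 5iLAF and knockout 2iLAF. In WT 2iLAF 3 of the 19 were higher (AGRN, TNC and THBS1) and FN1 was lower, beside 4.73% and 7.02% of all genes.

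Integrin adaptors link the beta chain tail to actin. Of 28 listed, 27 were compared, with 9 higher and 1 lower in WT 5iLAF against WT basal (median 0.66) and 12 higher and 1 lower in knockout 2iLAF against knockout basal (median 0.94). Over all genes 10.7% were higher and 11.4% lower in the first (median -0.06), and 15.9% and 11.8% in the second (median 0.02). The kindlins, which activate integrins together with talin, differed among themselves. FERMT2, the kindlin of most tissues, stood at 83.4 TPM in WT basal, 104 in knockout basal, 148 in WT 2iLAF, then 199 in WT 5iLAF and 223 in knockout 2iLAF. FERMT1, the epithelial kindlin, stood at 12.8, 8.90, 8.27, 4.48 and 2.95 TPM. FLNA, the actin crosslinker filamin A, stood at 395, 336, 411.3, 816 and 1076 TPM. In WT 2iLAF 1 adaptor was higher (LIMS2) and 1 lower (TES), shares no larger than the 4.73% and 7.02% of all genes.

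Other laminin receptors and hemidesmosome partners numbered 11, with 2 higher and 3 lower in each of WT 5iLAF and knockout 2iLAF against basal, beside 10.7% of all genes higher and 11.4% lower in WT 5iLAF and 15.9% and 11.8% in knockout 2iLAF. BCAM, a laminin alpha 5 receptor, stood at 59.7 TPM in WT basal, 73.3 in knockout basal, 152 in WT 2iLAF, then 10.5 in WT 5iLAF and 8.39 in knockout 2iLAF. DAG1, dystroglycan, passed the size rule in neither, at 90.2, 125, 164, 155 and 160.4 TPM. WT 2iLAF was thus highest for BCAM, while LAMA5 was highest in WT 5iLAF. For DAG1 WT 2iLAF led by little, at 164 TPM against 160.4 in knockout 2iLAF. Of 10 compared cell-surface ligands, 0 were higher and 6 lower in WT 5iLAF, and 0 higher and 4 lower in knockout 2iLAF, CDH1 among both, beside those same shares of all genes. VCAM1, the ligand of the receptor of ITGA4, stayed at or under 0.60 TPM. In knockout basal against WT basal, none of the compared adaptors, matrix ligands and other laminin receptors was counted in either direction, and 1 cell-surface ligand, ICAM2, was lower, at 0.61 against 3.32 TPM.

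Promoter sequences were read for members that were high in the libraries labelled naive, and for the pair of neighbours LAMB1 and LAMB4, of which 1 is abundant and 1 listed at 0. RefSeq windows (build GRCh38.p14, 300 bases around the gene start) were matched by symbol for 25 of the 36 genes. The windows lie at chr15:68432114-68432413 for ITGA11, chr12:54419217-54419516 for ITGA5, chr7:108003112-108003411 for LAMB1 and chr7:108130312-108130611 for LAMB4, all on the minus strand and printed 5′ to 3′ along the gene. Capitals mark GGGCGG (the GC box bound by SP1), TGANTCA (the AP-1 motif) and GGAATG (the TEAD motif) on either strand, where adjoining matches may overlap.
ITGA11: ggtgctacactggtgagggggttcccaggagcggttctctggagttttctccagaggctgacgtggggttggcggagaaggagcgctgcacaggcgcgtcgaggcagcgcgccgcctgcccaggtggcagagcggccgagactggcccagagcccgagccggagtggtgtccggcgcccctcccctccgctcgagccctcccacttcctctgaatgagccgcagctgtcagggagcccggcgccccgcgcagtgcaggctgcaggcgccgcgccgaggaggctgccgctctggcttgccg
ITGA5: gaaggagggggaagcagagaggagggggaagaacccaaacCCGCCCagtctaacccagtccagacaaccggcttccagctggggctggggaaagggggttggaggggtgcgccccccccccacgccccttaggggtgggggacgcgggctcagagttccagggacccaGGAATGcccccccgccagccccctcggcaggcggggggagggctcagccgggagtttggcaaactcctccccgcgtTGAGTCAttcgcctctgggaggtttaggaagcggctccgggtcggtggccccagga
LAMB1: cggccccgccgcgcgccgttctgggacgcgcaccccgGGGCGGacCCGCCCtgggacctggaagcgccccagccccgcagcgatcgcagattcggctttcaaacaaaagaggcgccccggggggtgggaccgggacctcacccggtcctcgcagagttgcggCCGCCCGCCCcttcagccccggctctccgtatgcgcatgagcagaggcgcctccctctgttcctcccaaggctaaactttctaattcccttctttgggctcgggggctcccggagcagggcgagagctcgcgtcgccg
LAMB4: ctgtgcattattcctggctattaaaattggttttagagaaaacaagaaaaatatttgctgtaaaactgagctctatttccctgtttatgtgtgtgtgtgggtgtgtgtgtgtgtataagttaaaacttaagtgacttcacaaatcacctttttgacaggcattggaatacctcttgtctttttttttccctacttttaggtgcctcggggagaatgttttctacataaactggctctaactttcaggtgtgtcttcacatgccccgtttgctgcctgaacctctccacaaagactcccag

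The ITGA5 window held 1 match of each motif, the LAMB1 window 4 GC boxes, and the ITGA11 and LAMB4 windows no match. Of the 12 matched members at 10 TPM or more in at least 1 library, 8 held a GC box, against 5 of 13 matched members under 10 TPM, and 45% of the 35116 RefSeq windows held one. AP-1 matches stood in 3 of 25 members (7.71% of all windows) and TEAD matches in 4 (14% of all windows), where a member with several gene starts was counted if any window matched. A match describes letters in the window and is not evidence of binding. The authors aligned to hg19, so these coordinates do not apply to the deposited values.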

How the data were processed

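RNA was selected on oligo(dT) beads and sequenced from stranded TruSeq libraries, per the labels' protocols. The submitters' processing notes name Trimmomatic 0.39, Bowtie2 2.3.4.1, RSEM 1.2.28 and genome build hg19; the sources used here give neither annotation nor strand setting. Per the file headers, the deposited table of 26506 genes holds TPM and FPKM for every library. Another 18 columns were empty. Because RSEM shares out reads that match more than 1 gene, values of near-identical copies are uncertain, and without strand an overlapping antisense gene could take part of a member's reads.

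Each library was its own group by its title (1 library per group). A total of 6 pairs of libraries were compared as the log2 ratio of TPM + 1, over 15761 genes reaching 1 TPM in at least 1 library, and counted at a log2 ratio of 1 in size. This scale understates ratios of low genes. No test was possible, and depth is unknown. Subunits were paired into 24 receptors and 13 trimers by the lowest chain. Any member could be named, as could B3GALT5, ITGAM, markers, and up to 4 genes of a partner list by ratio or level. Of the genes taken by the symbol rule 1, with what needs it, is not reported here. The members and lists were chosen with earlier results of these data known. Alternatives were median-ratio scaling, FPKM, pseudocounts of 0.1 and 5 TPM, filters of 0 and 5 TPM and a limit of 5 TPM for receptors and trimers. For receptors a limit of 10 TPM was also read. The count of genes by size was run on simulated data with 4-fold changes in abundant genes and an assumed log2 noise of 0.15. Such changes lie past the size rule, so this checks the counting only and gives no error rate for these libraries. Software was pandas 2.3.3, numpy 2.4.6 and matplotlib 3.10.9 in Python 3.11.15.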

Additional observations from a re-analysis of the deposited data

Results flagged for a closer look

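The change from basal medium to 2iLAF went in opposite directions in WT and knockout cells for ITGA5 and ITGAV, the alpha chains of the fibronectin and vitronectin receptors. ITGA5 had a log2 ratio of 2.02 in knockout and -1.03 in WT, a difference of 3.05. ITGAV had 2.09 in knockout and -1.06 in WT, a difference of 3.15. With 1 library per group these differences were not tested. Of all compared genes, 15.9% were higher in knockout 2iLAF against knockout basal and 7.02% lower in WT 2iLAF against WT basal. The share of all genes counted in both ways is not given here, so these genes cannot be set against it. The WT ratios lie close to the size rule and were not counted with a pseudocount of 5 TPM, with median-ratio scaling or with FPKM. Over the alternatives they ranged from -1.07 to -0.86 for ITGA5 and from -1.14 to -0.84 for ITGAV. Their count thus did not hold, while their direction did, which a pseudocount cannot reverse.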

How the results depend on the processing

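The directions of counted subunit genes did not reverse under any alternative that gave them a value, out of 2 other pseudocounts, 2 other filters, median-ratio scaling and FPKM. These were 6 for most genes, 5 for ITGA2, ITGA4, ITGAL, ITGAX, ITGB4 and ITGB8 and 4 for LAMA3, which the filter of 5 TPM or that on FPKM removed. A pseudocount or a filter cannot reverse the sign of a ratio, so only median-ratio scaling and FPKM could have shown a reversal. A pseudocount of 5 TPM gave 1 lower member in WT 5iLAF against WT basal, 1 higher and 3 lower in WT 2iLAF against WT basal, 1 lower in knockout 2iLAF against either knockout basal or WT 2iLAF, and 2 higher in knockout 2iLAF against WT 5iLAF. With a pseudocount of 0.1 the lower members of WT 2iLAF were 11, beside 11.4% of all genes in place of 7.02%. With median-ratio scaling or FPKM the lower members of WT 2iLAF were 3. FPKM gave 4 higher members in knockout 2iLAF against WT 5iLAF. A filter of 5 TPM, which leaves 21 members, gave 1 lower in WT 5iLAF, 1 higher in WT 2iLAF and 3 higher in knockout 2iLAF against WT 5iLAF. Leaving out ITGAL, ITGAX and ITGB2, chosen after seeing the data, gave 4 in that last comparison. Without a filter no member count differed, but the median over members in knockout 2iLAF against WT 2iLAF was 0.94 in place of 1.51. That median was 0.99 with a pseudocount of 5 TPM. A filter of 5 TPM gave member medians of 1.26 in WT 5iLAF and 1.53 in knockout 2iLAF against their basal libraries, in place of 0.39 and 0.88. At 5 TPM for every chain, 6 receptors were found in each of WT basal, knockout basal and WT 2iLAF and 10 in knockout 2iLAF, and 5 trimers in each of WT basal, knockout basal and WT 2iLAF. Apart from the fewer genes left by the filter and the omission, the cause was not tested. No paired analysis was possible because each group holds 1 library.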

Other observations

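Antisense partners of members were listed low. ITGA9-AS1 stood between 0.19 and 1.08 TPM, ITGB2-AS1 at most at 0.91 TPM, in WT 5iLAF, and LAMA5-AS1 was listed at 0 in all 5 libraries. ITGAM, ITGAX and ITGAD follow each other on chromosome 16, and in knockout 2iLAF ITGAM stood at 3.47 TPM and ITGAX at 4.85, while ITGAD was listed at 0.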
